A study of Macaca mulatta with 24 samples.

Results

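Endothelial and vascular genes were followed in the colon of rhesus macaques after total-body irradiation (TBI), the exposure of the whole animal to gamma rays in 1 session. The group comprised 48 genes listed by their known roles, of which 39 had a probe among the 43603 on the array. The probes carried 16103 different gene names, among them LOC numbers that could not be given a gene symbol. The list was chosen with earlier results of these data known, so its shares set beside those of all probes are descriptive. For each gene, the probe with the highest mean over the 24 arrays stood for it. Of the 39, 36 were found by their symbol, CD34 and PDPN through a gene identifier, and MADCAM1 through the probe description, while ECSCR, ROBO4, EMCN, MCAM, ENG, MMRN2, PLVAP, NOTCH4 and CSPG4 were not found and were not analysed here. Probes that were well above background on 2 or more arrays were tested, which 38 of the 39 genes passed.

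Whole colon tissue of 24 male animals was measured, 1 array per animal. The 4 controls received no irradiation, were labelled day 4, and served the comparison on every day. The other animals were exposed to 6.7 Gy or to 7.4 Gy and taken on day 4 (4 animals at each dose), day 7 (4 at each dose) or day 12 (2 at each dose). Values are log2 signals relative to the 75th percentile of the same array, so that every change is relative to it, and signals of different probes are not comparable. The arrays had between 66.7% and 85.0% of their probes well above background. Within groups, arrays correlated at 0.963 to 0.985 across probes, although probes are no replicates. A gene was called at an adjusted p under 0.05 in limma, with at least a 2-fold change.

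Endothelial cells line blood and lymph vessels. In the resting state they carry junction proteins and transcription factors that define the lineage, and on activation by inflammatory signals or injury they display selectins and adhesion molecules that capture leukocytes. Vascular endothelial growth factors (VEGF) act through KDR, FLT1 and FLT4, and the angiopoietins act through TEK, on which ANGPT1 is a stabilising and ANGPT2 a context-dependent, often destabilising ligand. The 48 genes were therefore read by role: 17 vessel identity genes (10 tested), 9 receptors (8 tested), 7 ligands (all tested), 7 activation genes (6 tested), 5 lymphatic genes (all tested), 2 mural cell genes (1 tested) and CLDN10, a claudin. Because whole tissue was measured, fewer cells of a type and less RNA per cell cannot be told apart. PECAM1, CDH5 and ICAM2, which endothelium carries, were well above background on all 24 arrays. Whether other cells of the tissue added to their signal was not tested.

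On day 4, the adhesion receptor VCAM1 and the vasodilator peptide ADM were increased after both doses, and VWF, EDNRB and MMRN1 were also called after 7.4-Gy TBI. None of the 38 genes was called lower with its representative probe, against 1.83% and 3.65% of all probes at the lower and higher dose. After 6.7-Gy TBI, 2 of the 38 genes were called higher (5.26%), where 1.81% of all probes were. After 7.4-Gy TBI, 5 were called higher (13.2%), where 3.40% of all probes were. By adjusted p alone, 4 genes were higher at 6.7 Gy (10.5%, against 4.43% of all probes) and 12 at 7.4 Gy (31.6%, against 8.50%), and these 12 included all 4. The median log2 change of the 38 genes was 0.29 and 0.47 at the lower and higher dose, where that of all probes was -0.07 at both. Blocking on position on the slide together with the day of scanning, an alternative chosen after seeing the data, kept none of the 5 calls at 7.4 Gy (adjusted p from 0.115 to 0.466). Over the whole array, 582 probes were called at 7.4 Gy with that block, where 2692 were called without it. The planned block on position alone called more of the 38 genes at 7.4 Gy than the main fit, although ADM and VWF lost their calls. Over the whole array it called 3024 probes. At 7.4 Gy the medians of the vessel identity and activation genes were larger with either block, as given below. All 4 controls were hybridised at position 1 and all 4 of the 7.4-Gy day 4 animals at position 2.

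**Figure D1:**
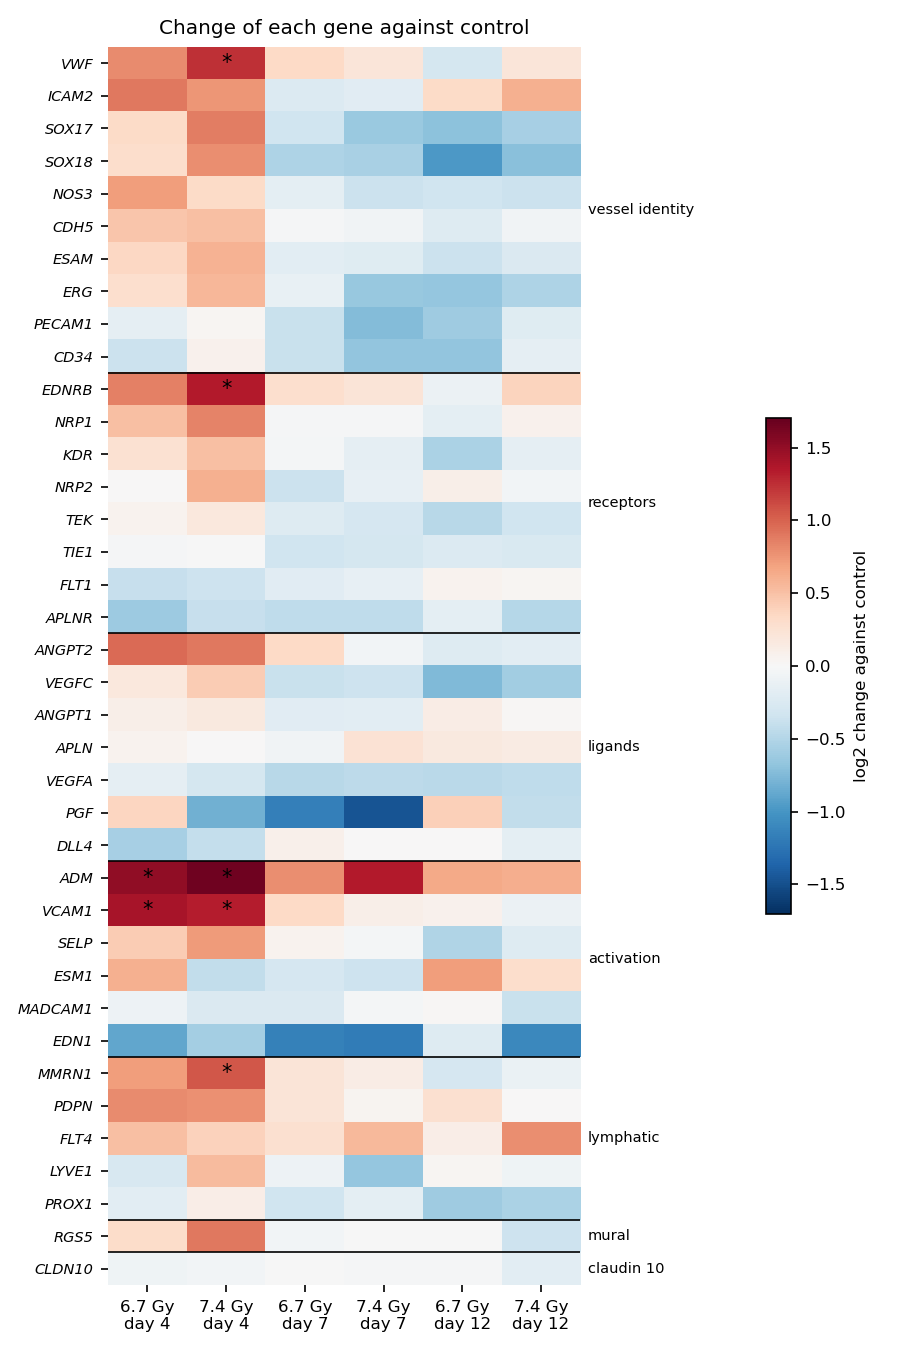
Log2 change of each of the 38 tested genes (rows, grouped by role) against the controls in the 6 irradiated groups (columns); the colour gives the change and a star marks a called gene. All 7 stars lie in the day 4 columns, and the vessel identity rows turn from mostly higher on day 4 to mostly lower on days 7 and 12, where no gene was called.

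VCAM1, which binds leukocyte integrins, kept its call at 6.7 Gy under all 16 alternatives and with each animal left out. The controls measured 0.68, 0.16, 0.84 and 0.90 on the log2 scale. On day 4, the animals measured 2.01, 2.27, 2.36 and 1.53 after 6.7 Gy and 1.98, 2.04, 2.18 and 1.75 after 7.4 Gy. All 8 irradiated animals therefore lay above every control. VCAM1 increased 2.64-fold at 6.7 Gy (log2 change 1.40, SE 0.24, adjusted p = 0.00192) and 2.53-fold at 7.4 Gy (1.34, SE 0.24, adjusted p = 0.000786). Within slides that held a control and an irradiated animal, its log2 difference lay between 1.14 and 1.67 in 4 pairs. By day 7, its values were 0.82, 1.27, 1.01 and 0.83 after 6.7 Gy and 1.16, 1.06, 0.65 and 0.11 after 7.4 Gy, which overlapped the controls. On day 12 they were 1.07 and 0.37 at the lower dose and 0.36 and 0.74 at the higher dose, of which 1.07 lay above the highest control and the other 3 within the control range.

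ADM, a peptide that relaxes vessels and tightens the endothelial barrier, varied more between animals. Its control values were 0.71, 0.37, 1.24 and -0.49. On day 4 they were 1.66, 2.22, 1.75 and 2.23 after 6.7 Gy and 2.61, 1.40, 2.23 and 2.23 after 7.4 Gy, all above the highest control. The increase was 2.84-fold at 6.7 Gy (log2 change 1.51, SE 0.44, adjusted p = 0.0358) and 3.16-fold at 7.4 Gy (1.66, SE 0.44, adjusted p = 0.0125). The call at 6.7 Gy was lost when any of 7 of the 8 animals compared was left out, control replicate 3 being the exception, and both calls were lost with array position as a block (adjusted p = 0.121 and 0.224). On day 7, the 7.4-Gy animals still measured 1.95, 1.93, 1.1 and 2.25, of which 3 lay above all controls, yet the log2 change of 1.35 (SE 0.44) did not pass the test (adjusted p = 0.21). On day 12 single animals at 6.7 Gy measured 2.11 and 0.10, and those at 7.4 Gy 0.83 and 1.33. A further ADM probe changed by 0.89 and 0.90 on day 4, below the 2-fold threshold.

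No other activation gene was called on day 4 with its representative probe. P-selectin (SELP), which endothelial cells and platelets release to the surface and which starts leukocyte rolling, measured -0.43, -1.06, -0.65 and -0.60 in the controls. After 7.4 Gy on day 4 it measured -0.30, -0.13, 0.27 and 0.32, above every control, a log2 change of 0.72 (SE 0.19, adjusted p = 0.011) that did not reach 2-fold. At 6.7 Gy the change was 0.43 (SE 0.19, adjusted p = 0.156). A second SELP probe, which was well above background on 23 arrays, was called at 7.4 Gy with a log2 change of 1.06 (adjusted p = 0.00937). The E-selectin gene SELE, which is induced by cytokines, was not above background on any of the 24 arrays with its representative probe and was not tested. ESM1 was above background on 1 array of each day 4 group and on none of the others. Its values therefore lay near background, and its log2 change at 7.4 Gy on day 4 was negative. MADCAM1, the mucosal addressin, changed by -0.09 and -0.25, and the vasoconstrictor EDN1 by -0.88 (SE 0.52) and -0.58 (SE 0.52), with adjusted p of 0.31 or more for both genes.

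**Figure D2:**
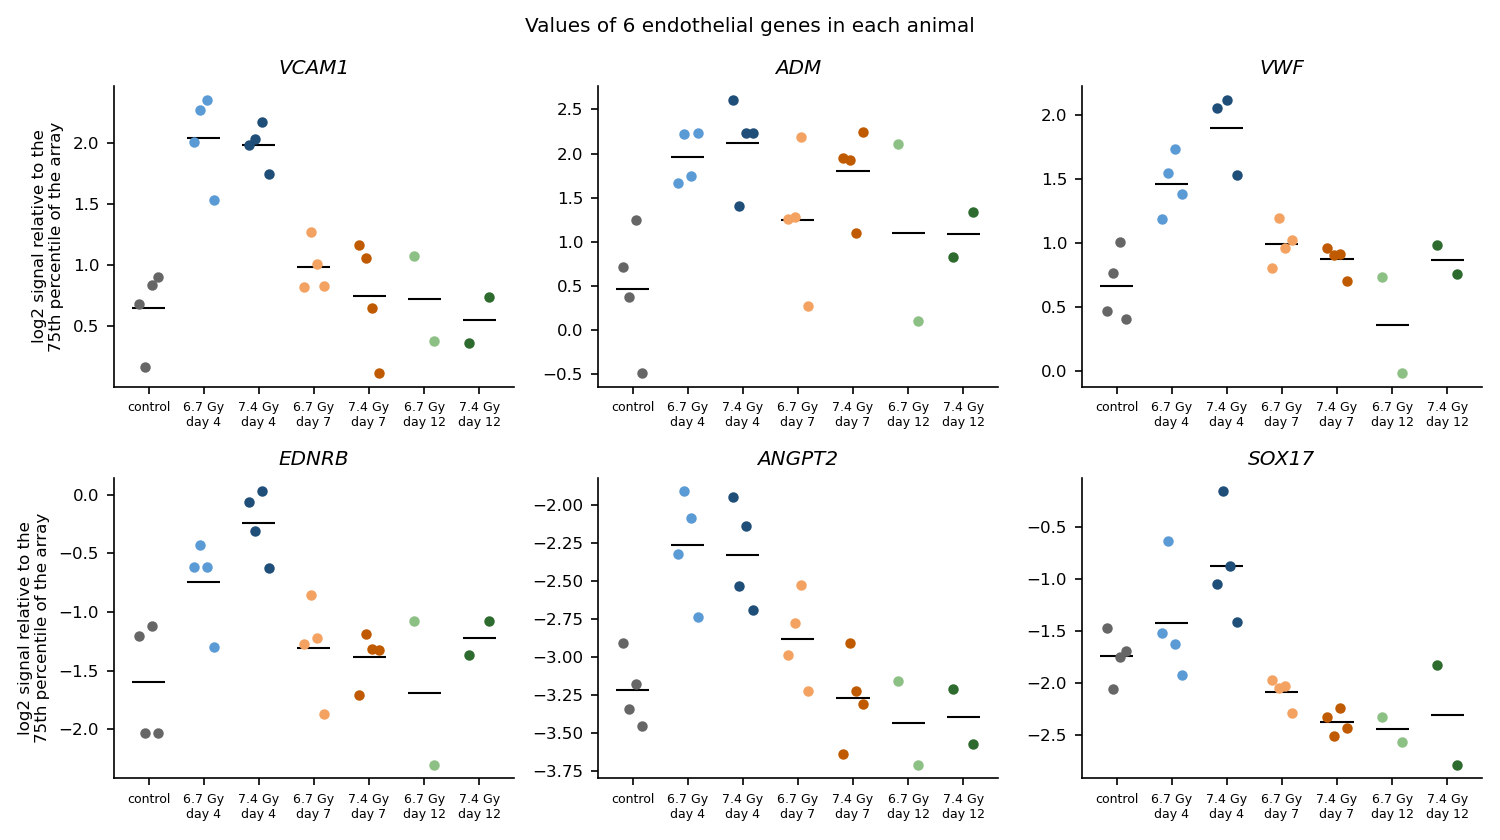
Log2 signal relative to the 75th percentile of the array (vertical axis, linear, scaled separately in each panel) of 6 genes in each of the 7 groups; each point is 1 animal and the line is the group mean. All day 4 points of VCAM1 and ADM lie above their controls, while the day 7 points of SOX17 all lie below the day 4 points; VWF has 3 points in the 7.4-Gy day 4 group, because 1 outlier spot was set to missing.

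Among the vessel identity genes, VWF, the clotting glycoprotein stored in endothelial granules, changed most at 7.4 Gy. It measured 0.47, 0.77, 1.01 and 0.40 in the controls and 1.19, 1.55, 1.74 and 1.39 on day 4 after 6.7 Gy. After 7.4 Gy, the 3 animals with a value measured 2.06, 2.12 and 1.53. The day 4 values were above all controls at both doses. VWF increased 2.36-fold at 7.4 Gy (log2 change 1.24, SE 0.20, adjusted p = 0.000414) and 1.74-fold at 6.7 Gy (0.80, SE 0.18, adjusted p = 0.0116), the latter under the 2-fold threshold. With array position as a block, the change at 7.4 Gy was 1.05 with an adjusted p of 0.0587.

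The remaining vessel identity genes moved in smaller steps on day 4. At 7.4 Gy all 10 tested genes were higher than in controls, with 4 past the adjusted p, and at 6.7 Gy 8 were higher, with 1 past it. VE-cadherin (CDH5), the adhesion protein of endothelial junctions, measured -2.73, -2.54, -2.54 and -2.52 in the controls and -2.08, -1.86, -2.0 and -2.33 after 7.4 Gy. These groups did not overlap, with a log2 change of 0.51 (SE 0.18, adjusted p = 0.0461). ESAM, another junction protein, changed by 0.59 (SE 0.20, adjusted p = 0.0393). The transcription factor SOX17 changed by 0.87 (SE 0.27, adjusted p = 0.0261), to values between -1.41 and -0.15 against -2.05 to -1.47 in the controls. PECAM1, which joins neighbouring endothelial cells, measured 0.58, -0.15, 0.02 and 0.13 in the controls and 0.54, 0.05, -0.05 and 0.19 after 7.4 Gy, a change of 0.04 (SE 0.21, adjusted p = 0.922) with overlapping groups. CD34 changed by -0.37 and 0.08 at the lower and higher dose. This glycoprotein of small vessels did not pass the test at either dose.

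Of the receptors, the endothelin receptor EDNRB, which is also made by other colonic cells, measured -1.20, -2.03, -1.12 and -2.03 in the controls. On day 4 it measured -0.61, -0.43, -0.62 and -1.30 after 6.7 Gy and -0.06, -0.31, 0.03 and -0.63 after 7.4 Gy. The 7.4-Gy animals all lay above the controls, and 1 of the 6.7-Gy animals lay among them. EDNRB increased 2.56-fold at 7.4 Gy (log2 change 1.35, SE 0.28, adjusted p = 0.00281) and changed by 0.85 (SE 0.28, adjusted p = 0.0622) at 6.7 Gy. The semaphorin and VEGF co-receptor NRP1 was the other receptor past the adjusted p, with a change of 0.84 at 7.4 Gy (SE 0.26, adjusted p = 0.0294). The other NRP1 probes changed by 0.38, 0.73 and 0.64 there, none past the test (adjusted p = 0.386, 0.0917 and 0.148). The VEGF receptor KDR changed by 0.26 and 0.51, and the angiopoietin receptor TEK by 0.07 and 0.18, none past the test. FLT1 changed by -0.39 and -0.35 with its representative probe, whereas a second, dimmer probe, well above background on 17 arrays, was called lower at both doses (-1.34, adjusted p = 0.00501, and -1.46, adjusted p = 0.000961), so that its direction is shared and its size depends on the probe.

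No ligand was called on day 4. ANGPT2, which endothelial cells store and release on activation, had the lowest p-values among them. It measured -2.91, -3.34, -3.18 and -3.46 in the controls, and on day 4 -2.32, -1.91, -2.09 and -2.74 after 6.7 Gy and -1.95, -2.53, -2.14 and -2.69 after 7.4 Gy. All 8 irradiated animals were above the controls. The log2 changes were 0.96 (SE 0.22, adjusted p = 0.0108) and 0.89 (SE 0.22, adjusted p = 0.00784), short of 2-fold. Its partner ANGPT1 changed by 0.10 and 0.16 (SE 0.15 each), and VEGFA by -0.15 and -0.30, none past the test. VEGFC, the lymphatic growth factor, changed by 0.18 and 0.43 with adjusted p of 0.59 and 0.12. PGF values spread from -1.91 to 3.09 within the 6.7-Gy day 4 group alone, so that its changes of 0.37 and -0.82 carried SEs of 0.76.

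The lymphatic genes gave 1 call. MMRN1, a matrix glycoprotein of lymphatic endothelium and platelets, measured -5.29, -4.71, -3.89 and -4.37 in the controls and -3.44, -3.43, -3.42 and -3.75 after 7.4 Gy on day 4, with no overlap. Its increase of 2.08-fold (log2 change 1.06, SE 0.35, adjusted p = 0.039) was lost when any of 7 of the 8 animals was left out, control replicate 3 again being the exception. The MMRN1 call was also lost with a slide block (adjusted p = 0.157), a scan day block (adjusted p = 0.103), a replicate block (adjusted p = 0.0503) and the mean of its probes (adjusted p = 0.159), and another MMRN1 probe changed by 0.26. Podoplanin (PDPN) changed by 0.81 and 0.78 with groups that did not overlap at either dose, but with adjusted p of 0.0919 and 0.0741. LYVE1, the hyaluronan receptor, FLT4, the receptor of VEGFC, and PROX1, the factor that sets lymphatic identity, did not pass the test at either dose.

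The mural cell gene RGS5, made by pericytes, measured 1.49, 1.08, 1.44 and 0.55 in the controls and 2.20, 2.26, 1.72 and 1.97 after 7.4 Gy on day 4. These values were all above the controls, with a log2 change of 0.90 (SE 0.23, adjusted p = 0.0102). At 6.7 Gy it measured 1.55, 1.72, 1.49 and 1.07, overlapping the controls, with a change of 0.32 (SE 0.23, adjusted p = 0.409). CLDN10 measured -2.31, -2.16, -2.70 and -2.31 in the controls and -2.36, -2.50, -1.93 and -2.86 after 7.4 Gy, a change of -0.04 (SE 0.21, adjusted p = 0.906).

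Groups without overlap were counted for all genes. On day 4, 6 of 38 genes at 6.7 Gy (15.8%, against 16.2% of all probes) and 15 of 38 at 7.4 Gy (39.5%, against 23.6%) had irradiated animals wholly outside the control range. The share at 6.7 Gy was therefore near the background. The 7.4-Gy and 6.7-Gy groups share the 4 controls. Compared with each other on day 4, none of the 38 genes was called by limma, with 4 of 38 at an unadjusted p under 0.05, and no probe of the whole array was called in that contrast (0%). The share of all probes at an unadjusted p under 0.05 was not computed. With array position as a block, 114 probes of the whole array were called there, and again none of the 38 genes. For VCAM1 the dose difference was -0.06 (SE 0.24), for VWF 0.44 (SE 0.20), for EDNRB 0.50 (SE 0.28) and for RGS5 0.58 (SE 0.23). No dose difference was called on days 7 and 12 either, where 0 of 38 genes had an unadjusted p under 0.05 and the methods' t-test also called none.

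A list of other vascular genes, 41 of which were tested, gave the setting of the pathway. Not all of them are particular to endothelium, PDGFRB and HIF1A among them. At 6.7 Gy on day 4, 2 were called higher (4.88%, against 1.81% of all probes) and 1 lower (2.44%, against 1.83%). At 7.4 Gy, 5 were called higher (12.2%, against 3.40%) and 1 lower (2.44%, against 3.65%), with median log2 changes of 0.21 and 0.40. Among those called higher at 6.7 Gy was PROCR, the endothelial protein C receptor (2.49-fold, adjusted p = 0.00351). Those called higher at 7.4 Gy included VEGFD, which was well above background in 1 of 4 controls and whose groups overlapped, PROCR (1.65, SE 0.25) and ADGRL4, an adhesion receptor of endothelium (1.24, SE 0.19). The called lower genes were BMX at 6.7 Gy (-1.17, SE 0.30) and KLF4, also an epithelial transcription factor, at 7.4 Gy (-1.13, SE 0.18).

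Markers of other cell types moved on the same day. Of 9 epithelial markers, 8 were lower at each dose with a median log2 change of -0.64 at 6.7 Gy and -0.76 at 7.4 Gy. At each dose 3 of the 9 were called lower, against 1.83% and 3.65% of all probes. The median epithelial shift per animal ranged from -1.03 to -0.25 at 6.7 Gy and from -1.39 to -0.60 at 7.4 Gy, against -0.02 to 0.03 in the controls. All 6 fibroblast markers were higher, with medians of 0.57 and 0.90, of which 2 were called at 7.4 Gy (against 3.40% of all probes called higher). Their shift per animal ranged from 0.32 to 0.74 and from 0.74 to 1.19, against -0.22 to 0.55 in the controls. Of the 4 macrophage markers tested, 1 was called higher at 7.4 Gy (against the same 3.40%). Their part in the endothelial changes was not tested.

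Blood cell markers were set beside VWF, SELP and MMRN1, which platelets also carry. Of 3 platelet markers tested, PF4 was called higher at both doses (log2 changes 3.25 and 3.78), and the other 2 had negative changes. Over all probes, 1.81% and 3.40% were called higher. The platelet gene PPBP was well above background on none of the control and day 4 arrays. Of 4 red cell markers tested, all 4 were lower at each dose, with medians of -1.49 and -1.18 on day 4 and -1.68 and -1.61 on day 7. Among them the haemoglobin gene HBB was lower by a log2 change of -5.95 at each dose on day 4, and by -6.57 and -8.37 on day 7. On day 12 its group means were -2.41 and -0.23 against 2.80 in the controls. HBB was well above background on 22 of the 24 arrays. On the 7.4-Gy day 7 arrays the lowest values well above background were -6.04 to -5.11, so the size of the HBB change there is uncertain. The part of blood content in the endothelial values was not tested.

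On days 7 and 12, none of the 38 genes was called against the controls at either dose by limma, and the methods' t-test called none either. The background was low on these days, with 0.317% and 0.387% of all probes called on day 7 and 0.0183% and 0.0262% on day 12. At an unadjusted p under 0.05 there were 3 of 38 genes at 6.7 Gy and 7 at 7.4 Gy on day 7, and 6 and 1 on day 12. The shares above apply to the calls and not to these counts. The share of all probes at an unadjusted p under 0.05 was not computed, so these counts are not read as a result. Of the 7 genes on day 7 at 7.4 Gy, PECAM1 had the lowest p, and it did not pass the adjusted p. PECAM1 measured -0.56, -0.30, -0.50 and -1.03 there, all below the controls, a log2 change of -0.74 (SE 0.21, adjusted p = 0.12). Groups did not overlap for 2 genes at 6.7 Gy and 4 at 7.4 Gy on that day, against 7.2% and 5.82% of all probes. Of the other vascular genes described above, BMX was called lower at 7.4 Gy on day 7 (-1.35, SE 0.30, adjusted p = 0.045). The day 12 groups of 2 animals limit what could be called. Array position cannot be told apart from day in any contrast of days 7 and 12 with the controls.

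Vessel identity and activation genes were also compared as groups. The median log2 change of the 10 vessel identity genes was 0.34 and 0.58 on day 4, -0.20 and -0.46 on day 7, at the lower and higher dose in turn. On day 12 it was -0.48 and -0.23, the latter turning to 0.061 with spike-in scaling. On day 7, 9 of the 10 were lower than in controls at each dose, VWF being the exception, and none passed the test. The controls were hybridised at array position 1 and all animals of days 7 and 12 at other positions. Day and position therefore cannot be told apart in the contrasts of days 7 and 12 with the controls. The median of the 6 activation genes was 0.51 and 0.24 on day 4 and between -0.16 and 0.05 afterwards. It was 0.058 at 6.7 Gy on day 4 with normexp background correction, and at 7.4 Gy on day 12 it turned from -0.16 to 0.13 with spike-in scaling. For the activation genes the median hides an unequal set, from -0.58 for EDN1 to 1.66 for ADM at 7.4 Gy, and it was -0.25 when SELE, which failed the filter, was counted as well. ESM1, 1 of the 6, passed the filter only through 1 array in each day 4 group. Among genes above background on at least 12 arrays, which leaves ESM1 out, the activation median at 7.4 Gy on day 4 was 0.72. Per animal, the identity median lay between 0.37 and 0.72 in the 7.4-Gy day 4 group and between -0.24 and 0.90 at 6.7 Gy, where 1 animal was below all controls. On day 7 it ranged from -0.39 to -0.03 at 6.7 Gy and from -0.64 to -0.15 at 7.4 Gy, against -0.22 to 0.09 in the controls.

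**Figure D3:**
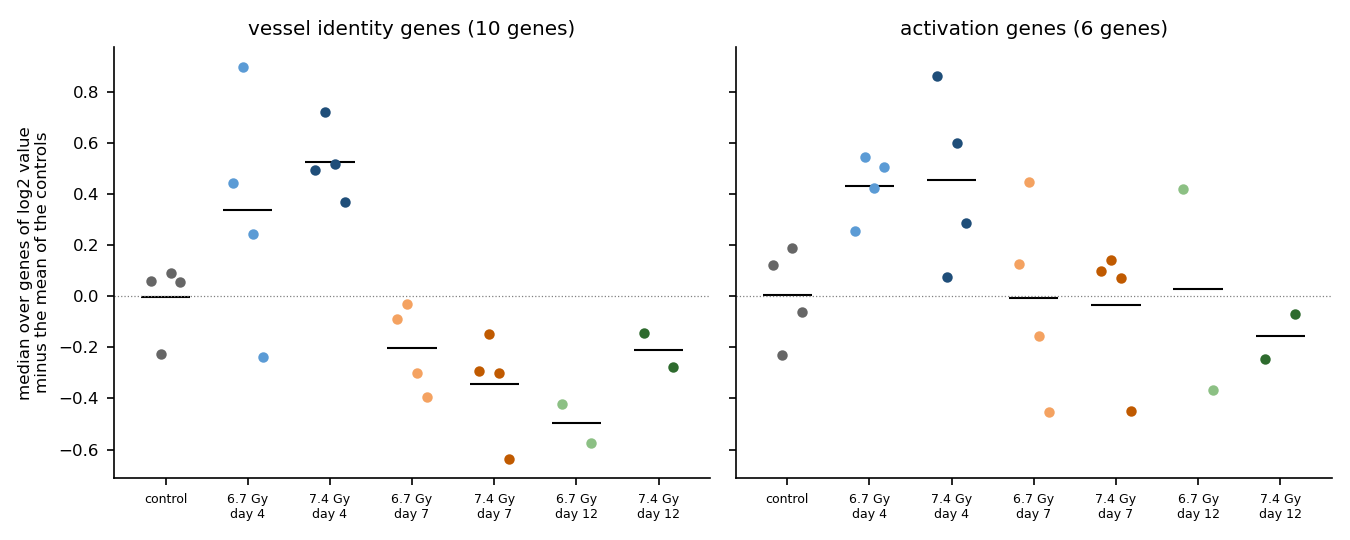
Median over the vessel identity genes (left, 10 genes) and the activation genes (right, 6 genes) of each animal's log2 value minus the mean of the controls (vertical axis), by group; each point is 1 animal and the line is the group mean. All 8 identity points on day 7 lie below 0 and all 4 of the 7.4-Gy day 4 group above the controls, while the activation points of the later days straddle 0. ESM1, 1 of the 6 activation genes, was well above background on only 2 arrays, both of day 4.

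By adjusted p, more of the 38 genes passed between day 4 and the later days than against the controls. These contrasts pool both doses, so each holds more animals than a contrast of 1 group with the controls. Over the whole array, too, 9957 and 9119 probes passed on days 7 and 12 in either direction, against 7680 at 7.4 Gy on day 4. Over both doses, 4 of 38 genes were called lower on day 7 than on day 4 (10.5%, against 2.06% of all probes) and 7 on day 12 (18.4%, against 2.92%), with none called higher (against 2.38% and 3.58% of all probes). By adjusted p alone, 21 genes were lower on day 7 (55.3%, against 11.4%) and 17 on day 12 (44.7%, against 10.7%). The median log2 change of the 38 genes was -0.52 and -0.53, where that of all probes was 0.06 and 0.08. Vessel identity genes were lower in 10 of 10 on both days, with 9 and 7 past the adjusted p. The day 4 animals were hybridised at 2 of the 4 array positions and the later ones at the other two, so that day and position cannot be told apart. Both contrasts share the day 4 animals. With normexp background correction VCAM1 alone stayed called, with 1 call on each day.

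VCAM1 fell furthest among the activation genes. Its 8 day 4 animals ranged from 1.53 to 2.36 with a median of 2.02, and its 8 day 7 animals ranged from 0.11 to 1.27 with a median of 0.92. The 4 day 12 animals measured 0.36 to 1.07, and neither later day overlapped day 4. VCAM1 was 2.22-fold lower on day 7 (log2 change -1.15, SE 0.17, adjusted p = 0.000111) and 2.60-fold lower on day 12 (-1.38, SE 0.21, adjusted p = 0.00015). SELP fell by 0.56 on day 7 (SE 0.13, adjusted p = 0.00481) and by 0.94 on day 12 (SE 0.16, adjusted p = 0.000501), where no day 12 animal overlapped day 4. ADM did not pass the test, with changes of -0.51 and -0.95 (adjusted p = 0.236 and 0.0766).

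Transcription factors of endothelium were among the genes called lower. SOX17, which shapes arterial identity, ranged on day 4 from -1.92 to -0.15 with a median of -1.23, and on day 7 from -2.50 to -1.97 with a median of -2.26. All 8 day 7 animals lay below every day 4 animal. SOX17 was 2.12-fold lower on day 7 (-1.08, SE 0.19, adjusted p = 0.000447) and 2.34-fold lower on day 12 (-1.23, SE 0.23, adjusted p = 0.000937). SOX18, which acts in vascular and lymphatic development, fell 2.12-fold on day 7 (-1.08, SE 0.25) and 2.61-fold on day 12 (-1.38, SE 0.30), but it was well above background on only 5 of 8 day 7 and 2 of 4 day 12 arrays. Its median was -4.37 on day 4, -5.33 on day 7 and -5.68 on day 12. ERG, an ETS factor that maintains the endothelial state, was called on day 12 (-1.01, SE 0.29, adjusted p = 0.0147), and this call was lost when the probes of ERG were averaged (-0.44, adjusted p = 0.109), with spike-in scaling, and without any 1 of 5 animals (6.7 Gy day 4 replicates 1 and 2, 7.4 Gy day 4 replicate 2, 6.7 Gy day 12 replicate 1, 7.4 Gy day 12 replicate 2). Without 6.7 Gy or 7.4 Gy day 4 replicate 2, SOX17 and SOX18 lost their calls on day 7, as did SOX18 without 6.7 Gy day 7 replicate 3, and SOX17 lost that on day 12 without 7.4 Gy day 12 replicate 2.

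**Figure D4:**
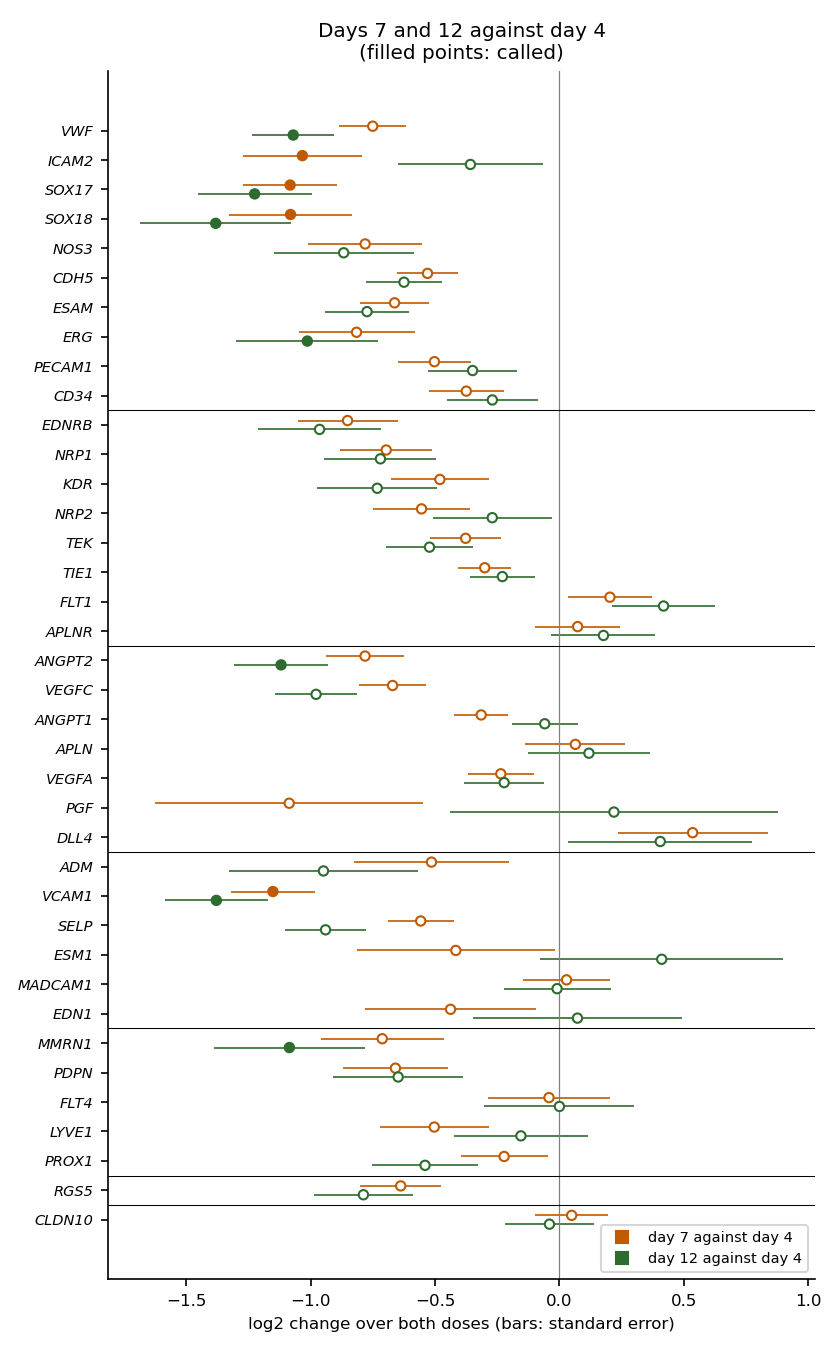
Log2 change of the 38 genes (rows, in the same order by role) on day 7 (orange) and day 12 (green) against day 4 over both doses (horizontal axis), with the standard error as a bar; filled points are called genes. Filled points are all to the left of 0, and the 10 vessel identity genes at the top lie left of 0 on both days.

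VWF, MMRN1, ANGPT2 and ICAM2 completed the genes called lower. VWF ranged from 1.19 to 2.12 on day 4 with a median of 1.55 in 7 animals, and from -0.02 to 0.99 on day 12 with a median of 0.75, without overlap. It was 2.10-fold lower on day 12 (-1.07, SE 0.16, adjusted p = 0.00022) and changed by -0.75 on day 7 (SE 0.14, adjusted p = 0.000706). ANGPT2 ranged from -2.74 to -1.91 on day 4 and from -3.71 to -3.16 on day 12, again without overlap, a 2.17-fold decrease (-1.12, SE 0.19, adjusted p = 0.000425). MMRN1 was 2.12-fold lower on day 12 (-1.09, SE 0.30, adjusted p = 0.0142), when it was well above background on 2 of 4 arrays, and the mean of its probes changed by -0.79 (adjusted p = 0.0481), short of 2-fold. ICAM2, an integrin ligand of resting endothelium, was called only on day 7: it ranged from 1.08 to 2.66 on day 4 and from -0.21 to 1.52 on day 7, with 7 of 8 day 7 animals below every day 4 animal (-1.03, SE 0.24, adjusted p = 0.00388). On day 12 ICAM2 changed by -0.36 (SE 0.29, adjusted p = 0.396). The calls of VWF and ANGPT2 on day 12 were lost without 6.7 Gy day 12 replicate 2, and that of MMRN1 without replicate 1 of the 6.7 Gy day 4, 6.7 Gy day 12 or 7.4 Gy day 12 group. That of ICAM2 was lost without 6.7 Gy day 4 replicate 4, 7.4 Gy day 4 replicate 1, 6.7 Gy day 7 replicate 3 or 4, or 7.4 Gy day 7 replicate 4.

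Among the receptors and ligands, 4 of 8 receptors were lower by adjusted p on each later day (against 11.4% and 10.7% of all probes), with EDNRB changing by -0.85 and -0.96 and NRP1 by -0.70 and -0.72. VEGFC changed by -0.67 (SE 0.13, adjusted p = 0.00141) and -0.98 (SE 0.17, adjusted p = 0.000411), while VEGFA changed by -0.24 and -0.22 and did not pass. RGS5 changed by -0.64 (SE 0.16, adjusted p = 0.00745) and -0.79 (SE 0.20, adjusted p = 0.00771). CLDN10 changed by 0.05 and -0.04. Of the 41 other vascular genes tested on day 7, 2 were called lower (4.88%, against 2.06% of all probes) and none higher. THBD, the thrombin cofactor thrombomodulin, was among those called lower, with -1.35 (SE 0.31). On day 12, 9 of 40 were called lower (22.5%, against 2.92%) and KLF4 was called higher (1.27, SE 0.18). Fibroblast markers were lower in 6 of 6 on both days, with medians of -0.53 and -0.87, and 1 and 6 of them past the adjusted p. Macrophage markers were lower in 4 of 4, with medians of -0.72 and -0.41 and 3 and 0 past it, and T cell markers in 4 of 4 on day 7 and 3 of 4 on day 12, with medians of -0.79 and -0.42 and 3 and 0 past it. Epithelial markers were higher in 8 of 9, with medians of 0.63 and 0.85. The part of these cell types in the endothelial changes was not tested.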

How the data were processed

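Colon RNA of 24 macaques was hybridised to 1-colour (Cy3) Agilent arrays. Per the file headers, the authors extracted the intensity of each spot with Feature Extraction, and the deposited scanner files hold processed signals, background-subtracted but not normalized between arrays. A table of normalized log2 values that the authors deposited served as an alternative. Outlier spots (24 to 712 per array) were set to missing, spots of a probe were averaged, and log2 signals were shifted to the 75th percentile of each array. Names came from the files and a RefSeq table. Of 43603 probes, 38220 were well above background on at least 2 arrays and were fitted in limma 3.58.1 (R 4.3.3) with 1 mean per group and Benjamini-Hochberg adjustment over all probes of a contrast. Control spots were left out. The number of arrays limits the precision, and p-values measure the spread between animals. Where the protocol text and the sample labels gave different last days, the sample labels were followed. The members and lists were chosen with earlier results of these data known. Values by animal are given for genes called against control, for the gene with the lowest p in other roles, and, chosen after their values were seen, for PECAM1, CDH5, SELP and genes called between days. Replicate numbers did not pair the animals: deviations of animals with the same number correlated at a median of 0.0019. Those of animals on the same slide correlated at a median of 0.125 (over 0.1 in 25 of 36 pairs), and slide was fitted as a block in an alternative. The fit was tested on simulated data. Alternatives were other background correction, scaling, filters, tests and blocks, and leaving out each animal. Promoter motifs were not analysed here. Some genes of the companion lists are not reported here.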

Additional observations from a re-analysis of the deposited data

Results flagged for a closer look

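Of 74 pairs of a gene and a group of 4 animals checked among the genes given by animal, 3 had an animal far from the others, against about 1 in 20 by chance. CDH5 was low in control replicate 1, at -2.73 where the other controls measured -2.54 to -2.52. MMRN1 was low in 7.4 Gy day 4 replicate 4, at -3.75 where the others measured -3.44 to -3.42. SOX18 was high in 7.4 Gy day 4 replicate 2, at -3.25 where the others measured -4.39 to -4.27. No dose difference of these genes passed an adjusted p of 0.05.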

How the results depend on the processing

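Median scaling, quantile normalization and the authors' normalized table moved no count of called genes by over 1.5 times and no median by more than the spread between animals, and no change of a called gene reversed its sign under any alternative run. With normexp background the calls on day 4 were 1 at 6.7 Gy and 3 at 7.4 Gy, and 1 each on days 7 and 12 against day 4; the activation median at 6.7 Gy was 0.058, and the identity medians were 0.24 (7.4 Gy, day 4) and -0.27 (6.7 Gy, day 12). Spike-in scaling moved the median of all probes from -0.07 to 0.14 at 6.7 Gy and 0.21 at 7.4 Gy on day 4 and gave 6 and 13 calls, an activation median of 0.73 at 6.7 Gy and an identity median of 0.87 at 7.4 Gy, and on day 12 identity medians of -0.21 and 0.061 and, at 7.4 Gy, an activation median of 0.13. By adjusted p at any fold the calls were 4, 12, 21 and 17 (day 4 at each dose, days 7 and 12 against day 4). The methods' t-test called 1 and 3 on day 4, and a fit of only the groups compared 1 at 6.7 Gy. Over the whole array, the main fit called 1390 and 2692 probes on day 4 at the lower and higher dose. There were 789 and 1477 with normexp background and 1724 and 3559 with spike-in scaling. The methods' t-test called 492 and 1655 probes, and the fit of only the groups compared 848 at 6.7 Gy. The activation median at 7.4 Gy on day 4 was -0.25 without a filter and 0.72 above background on at least 12 arrays, since SELE enters in the first case and ESM1 leaves in the second.

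With a slide block the identity medians were 0.43 (7.4 Gy, day 4) and -0.35 (7.4 Gy, day 12) and the activation median -0.40 (7.4 Gy, day 12). An array position block gave 4 and 10 calls on day 4, activation medians of 0.38 and 0.65 and an identity median of 1.16 at 7.4 Gy; with scan day as well, chosen after seeing the data, the calls were 4 and 0, the identity median 1.05 and the activation median 0.89 at 7.4 Gy. Neither could be fitted for days 7 and 12 against control or day 4. Over the whole array, 1577 and 3024 probes were called on day 4 with position alone, and 1280 and 582 with scan day as well. With the replicate block, which does not pair these animals, the identity medians on day 12 were -0.63 and -0.35. The block moved the calls on day 4 from 5 to 4 at 7.4 Gy and on day 12 against day 4 from 7 to 10. It changed no other count of called endothelial genes. Over the whole array it called 2670 and 2614 probes in these contrasts, where the main fit called 2692 and 2480.

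Leaving out an animal gave 1 to 4 calls at 6.7 Gy on day 4, 2 to 4 on day 7 against day 4, activation medians of 0.35 to 0.66 (6.7 Gy, day 4) and -0.29 to -0.069 (7.4 Gy, day 12). At 6.7 Gy on day 4 there was 1 call without control replicate 2 or 4 or 6.7 Gy day 4 replicate 1, 2 or 3, and 4 without 6.7 Gy day 4 replicate 4. Over the whole array, 1157 to 1407 probes were called at 6.7 Gy on day 4 when a control was left out. Without 6.7 Gy day 4 replicate 1 there were 1152, where the main fit called 1390. Whole-array counts without the other animals are not given here. The 2 calls on day 7 came without 7.4 Gy day 4 replicate 2 or 6.7 Gy day 7 replicate 3. The causes were not tested. Against day 4, normexp lost every call except those of VCAM1. Over the whole array, normexp called 750 and 1213 probes on days 7 and 12 against day 4, where the main fit called 1698 and 2480. SOX18 was well above background on 18 of the 24 arrays, which limits its values.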
